A study of Homo sapiens with 24 samples.

Results

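The enzymes of de novo purine synthesis were followed through RNA sequencing of A549 and Huh7 cells treated with 3 herbs. The set was defined by gene symbol with earlier results of these data known, so the shares over all genes do not test it. It held 10 genes (PRPS1, PPAT, GART, PFAS, PAICS, ADSL, ATIC, IMPDH2, GMPS and ADSS2), and 10 of 10 were among the 14585 genes of the deposited table and passed the filter on low counts in both lines. In A549 cells, 8 of the 10 mRNAs fell with each herb, beside 14.8% to 17.1% of all genes, and none rose. In Huh7 cells 3 fell with P. chinensis, beside 10.5% of all genes. None passed the threshold with B. chinense, where 0.757% of all genes fell and 0.519% rose. With P. umbellatus 3 rose and 1 fell, beside 19.3% and 17.8% of all genes, in libraries that stood apart from the rest.

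A549 is a human lung adenocarcinoma line and Huh7 a human hepatoma line, both labelled WT in genotype. The label does not mean that they are alike: the paper on these data describes A549 as wild-type for p53 and Huh7 as p53 mutant. Each line was sequenced as control cells (Control) and after an extract of Pulsatilla chinensis (BTW), Bupleurum chinense (CH) or Polyporus umbellatus (ZL), with 3 libraries in each of the 8 groups and 24 in all. The extract dose, the time of treatment and the vehicle of the control cells of these libraries were not given in the sources used here, nor was it stated whether replicates were separate cultures, so p-values measure the spread between these libraries only. Where 3 values are given without names, they follow the order P. chinensis, B. chinense, P. umbellatus. Each line is 1 established culture and stands for no other lung or liver tumor.

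Purines are built on a ribose phosphate. PRPS1 makes the activated sugar PRPP, PPAT commits it to the pathway, and GART, PFAS, PAICS, ADSL and ATIC assemble the ring into IMP, with ATIC closing it. From this branch point IMPDH2 and GMPS lead to GMP, and ADSS2, followed by ADSL again, to AMP. Dividing cells rely on this route for nucleotides, folate one-carbon units feed it at the GART and ATIC steps, and MYC is a known activator of several of its genes.

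Totals per library ran from 6803704 to 17175624 counts in A549 cells and from 7182444 to 24345541 in Huh7 cells. KRT7 lay between 1498 and 1786 CPM (counts scaled to a common library size) in A549 libraries and at most 0.131 in Huh7, while the hepatic albumin gene ALB lay between 2892 and 4872 in Huh7 and at most 0.71 in A549. The Huh7 P. umbellatus libraries differed from their own group mean by a median absolute log2 difference of 0.186, 0.335 and 0.243 (replicates 1, 2 and 3), against 0.0689 to 0.101 in the other Huh7 libraries. Their changes also followed base composition: over 4 equal bins of genes from low to high transcript GC content, the median log2 fold change against control was 0.33, 0.19, -0.09 and -0.54. The main results that rest on these libraries are also given without replicate 2 and after a correction for GC content and length.

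The promoters of the set are shown first for PPAT and PAICS, a head-to-head pair on chromosome 4 whose mRNAs fell together in A549 cells, for PFAS, which fell in 5 of the 6 comparisons with control, and for ATIC, which passed the threshold in none. The sequences are from RefSeq (GRCh38.p14), 250 bases before to 50 after the start, 5′ to 3′ on the strand of the gene, with CACGTG, the E-box that MYC and related factors can bind, in capitals.
PPAT: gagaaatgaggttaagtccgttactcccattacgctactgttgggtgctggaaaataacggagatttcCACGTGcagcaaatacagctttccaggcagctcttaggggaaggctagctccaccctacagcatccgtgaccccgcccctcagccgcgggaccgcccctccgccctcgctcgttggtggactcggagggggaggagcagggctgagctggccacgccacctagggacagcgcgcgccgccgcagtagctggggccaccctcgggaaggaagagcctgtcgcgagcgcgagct
PAICS: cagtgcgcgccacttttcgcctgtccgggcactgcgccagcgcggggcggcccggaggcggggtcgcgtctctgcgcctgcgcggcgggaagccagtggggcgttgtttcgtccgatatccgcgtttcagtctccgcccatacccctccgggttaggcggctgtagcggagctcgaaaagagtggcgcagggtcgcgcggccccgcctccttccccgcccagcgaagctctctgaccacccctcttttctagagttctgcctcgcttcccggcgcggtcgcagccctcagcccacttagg
PFAS: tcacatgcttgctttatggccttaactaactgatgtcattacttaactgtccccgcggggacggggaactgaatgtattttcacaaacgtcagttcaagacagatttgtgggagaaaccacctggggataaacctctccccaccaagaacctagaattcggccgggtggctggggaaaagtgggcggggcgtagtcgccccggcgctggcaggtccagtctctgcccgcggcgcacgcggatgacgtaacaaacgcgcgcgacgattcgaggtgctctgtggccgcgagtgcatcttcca
ATIC: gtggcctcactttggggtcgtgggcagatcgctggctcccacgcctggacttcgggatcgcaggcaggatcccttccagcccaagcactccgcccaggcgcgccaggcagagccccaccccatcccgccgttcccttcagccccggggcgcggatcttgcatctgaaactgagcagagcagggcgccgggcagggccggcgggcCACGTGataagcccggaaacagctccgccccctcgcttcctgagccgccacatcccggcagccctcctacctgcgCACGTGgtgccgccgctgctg

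The PPAT window lies at chr4:56435566-56435865 on the minus strand and the PAICS window at chr4:56436010-56436309 on the plus strand. Their starts are 645 bases apart, with 144 bases between the windows. PFAS is at chr17:8249039-8249338 and ATIC at chr2:215311809-215312108, both on the plus strand. Windows were at hand for 8 of the 10 genes, all but ADSL and IMPDH2. CACGTG was found in 2 of the 8, PPAT and ATIC, and in 7.26% of all 35116 windows of this length. TTTCGCGC or TTTGGCGC, the E2F motif, and CCGGAAGT, the ETS motif, were found on either strand only in GART, against 1.15% and 4.14% of all windows. CCAAT was found in PRPS1 and GART (34.6% of all), and GCGCATGC, the NRF1 motif, in none of the 8 (3.05% of all). These are matches of letters only, and binding was not measured. The other genes lie on chromosome X (PRPS1), 21 (GART), 22 (ADSL), 3 (IMPDH2 and GMPS) and 1 (ADSS2).

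The expression of the set in A549 cells was compared between each herb and control with the quasi-likelihood test of edgeR, where genes with an adjusted p below 0.05 over 13633 genes were taken as changed. With P. chinensis 8 of 10 fell, against 17.1% of all genes that fell and 15.8% that rose. With B. chinense 8 of 10 fell, against 15% of genes that fell and 13.1% that rose. With P. umbellatus 8 of 10 fell, against 14.8% and 13.4%. The median log2 fold change of the 10 was -0.33, -0.30 and -0.32 in that order, where the median over all genes was 0.01, 0.00 and -0.01. Of the 10 genes, 7 fell with all 3 herbs (PRPS1, PPAT, GART, PFAS, PAICS, GMPS and ADSS2). After a correction for GC content and length ADSS2 passed only with P. chinensis (-0.19) and was at -0.09 with B. chinense and -0.08 with P. umbellatus (edgeR adjusted p = 0.218 and 0.22). The 3 comparisons share the same 3 control libraries and are not independent of each other.

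At the entry of the pathway, PRPS1 measured 133, 138 and 141 CPM (here after TMM normalization within the line) in control A549 cells. It measured 109, 101 and 113 with P. chinensis, 116, 117 and 107 under B. chinense, and 105, 114 and 113 after P. umbellatus, with no overlap between treated and control libraries. The log2 fold changes were -0.35 ± 0.06 (SE, n = 3 per group; edgeR adjusted p = 0.000289), -0.27 ± 0.06 (0.00273) and -0.32 ± 0.06 (0.000825). PPAT, the committed and feedback-controlled step, measured 67.1, 62.7 and 64.7 CPM in control cells and between 46.5 and 55.7 in the 9 treated libraries. Its log2 fold changes were -0.31, -0.39 and -0.38 (each ± 0.08), edgeR adjusted p from 0.00177 to 0.00593.

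The 2 largest falls of the set came at the middle steps. PFAS, which makes the amidine intermediate with glutamine as nitrogen donor, measured 219, 240 and 244 CPM in control A549 cells, 151, 152 and 158 with P. chinensis, 158, 169 and 175 under B. chinense, and 157, 162 and 163 after P. umbellatus. Each treated library lay below each control library. PFAS was thus 34.4%, 28.7% and 31.6% lower (log2 -0.61, -0.49 and -0.55, each ± 0.05), with edgeR adjusted p of 6.6e-07, 9.58e-06 and 2.8e-06. PAICS, the bifunctional carboxylase and SAICAR synthetase, measured 493, 457 and 480 CPM in control cells. Its levels were 314, 325 and 319 with P. chinensis, 323, 311 and 310 under B. chinense and 320, 345 and 336 after P. umbellatus, again without overlap. It was 33.0%, 33.9% and 29.9% lower in that order (log2 -0.58, -0.60 and -0.51, each ± 0.04), with edgeR adjusted p of 1.49e-07, 2.22e-07 and 8.03e-07.

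GART, which carries several of the early activities, fell by 0.35, 0.40 and 0.33 on the log2 scale (each ± 0.06). Its control libraries lay between 146 and 154 CPM and the treated ones between 108 and 124. The last steps to IMP are those of ADSL and ATIC. ADSL measured 68.4, 78.2 and 78.4 CPM in control cells and 58.2 to 70.4 in treated ones, which overlap. It fell with B. chinense (-0.22 ± 0.08, edgeR adjusted p = 0.0438), where 64.8, 63.3 and 64.6 all lay below control, and was at -0.14 and -0.21 with P. chinensis and P. umbellatus (adjusted p = 0.187 and 0.0527). DESeq2 gave the B. chinense value an adjusted p of 0.0647, and the call was also lost in the fit of 6 libraries, under other normalizations and filters, and without control replicate 2 (0.138) or 3 (0.133) or any 1 B. chinense library (0.0812 to 0.116). ATIC, the bifunctional enzyme that closes the ring, measured 274, 269 and 266 CPM in control cells and 241 to 263 in treated ones. Its log2 fold changes of -0.08, -0.10 and -0.09 did not pass the threshold in any comparison (edgeR adjusted p = 0.154, 0.0907 and 0.126), although treated and control libraries did not overlap.

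At the branch to GMP, GMPS measured 232, 230 and 220 CPM in control A549 cells, 166, 167 and 162 with P. chinensis, 180, 175 and 186 under B. chinense, and 175, 188 and 179 after P. umbellatus. The treated libraries were all lower, and the log2 fold changes were -0.46 ± 0.05, -0.33 ± 0.05 and -0.33 ± 0.04 (edgeR adjusted p = 2.23e-06, 7.25e-05 and 7.26e-05). IMPDH2, the rate-limiting step to guanine nucleotides, measured 162, 174 and 150 CPM in control cells and 130 to 153 in treated cells. It fell with P. chinensis (-0.28 ± 0.06) and P. umbellatus (-0.20 ± 0.06) but was at -0.17 ± 0.06 with B. chinense (edgeR adjusted p = 0.0639), where 1 library overlapped control. The P. umbellatus call was lost without control replicate 1 (0.0534) or 2 (0.122) or P. umbellatus replicate 2 (edgeR adjusted p = 0.103). On the AMP side, ADSS2 measured 94.7 to 100 CPM in control cells and 79.4 to 88.8 in treated cells, and fell by 0.29, 0.21 and 0.19 on the log2 scale (each ± 0.05), the latter 2 not past the threshold after the GC correction.

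**Figure D1:**
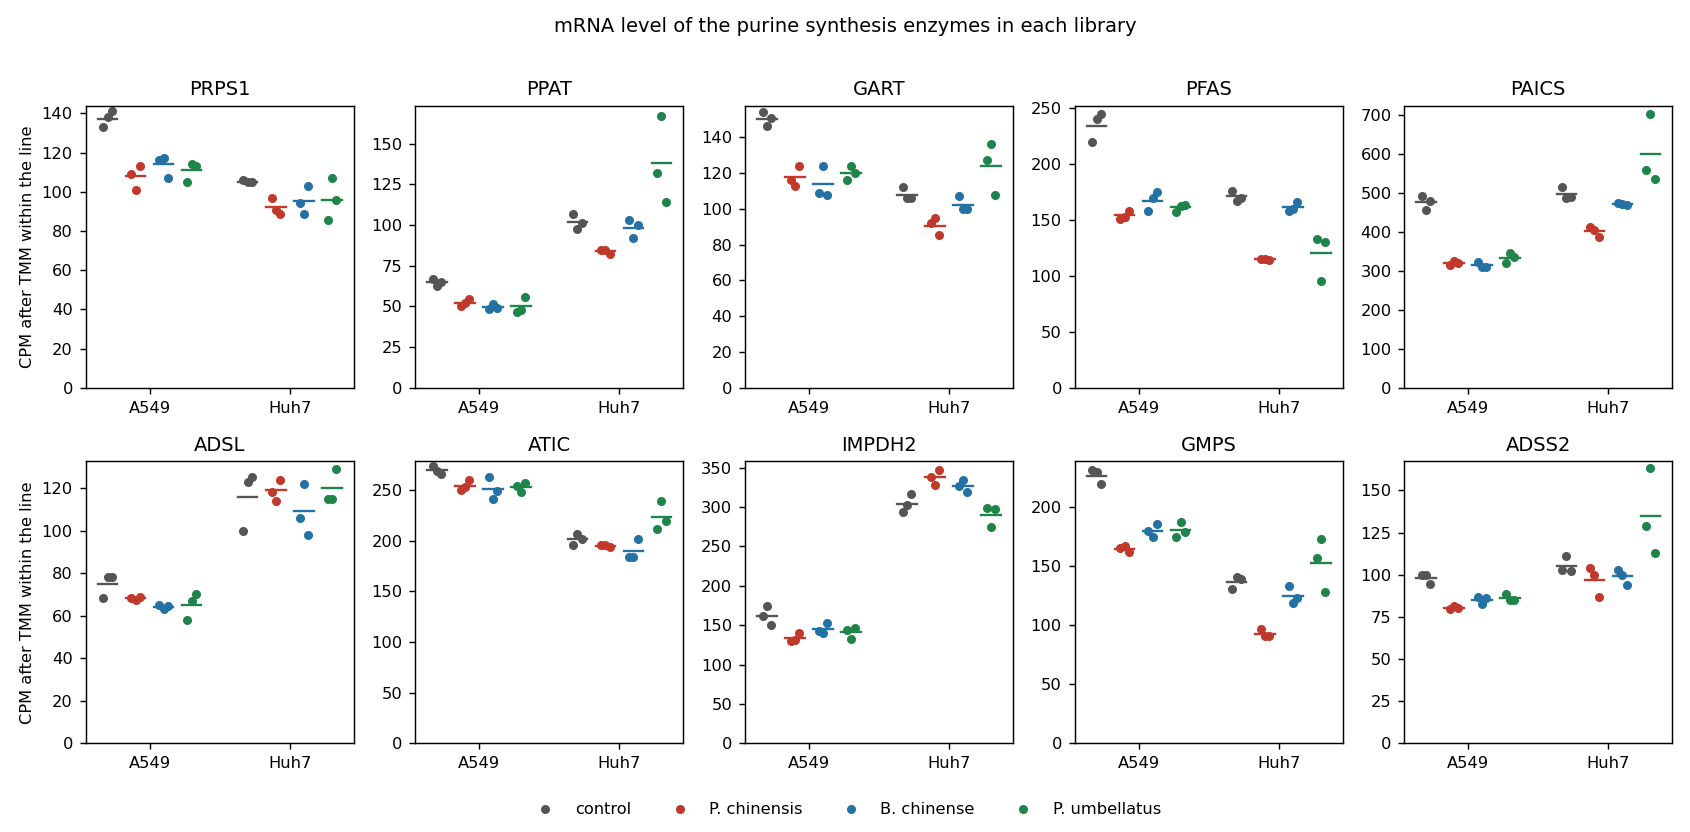
Level of each enzyme mRNA in CPM after TMM normalization within the line, with 1 point per library (n = 3 per group) and a line at the group mean. In A549 cells (left of each panel) control libraries sit above the treated ones for PRPS1, PPAT, GART, PFAS, PAICS, ATIC, GMPS and ADSS2, and in Huh7 cells (right) the P. umbellatus libraries spread most.

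Summed over the 10 genes, the control A549 libraries held 1890 to 1900 CPM and the treated ones 1430 to 1520. Ratios of counts within a library, which need no scaling between libraries, also differed. PFAS counts over ATIC counts were 0.801, 0.891 and 0.919 in control cells, 0.604, 0.603 and 0.609 with P. chinensis, 0.600, 0.704 and 0.702 under B. chinense and 0.617, 0.656 and 0.634 after P. umbellatus. Treated and control libraries did not overlap. For the head-to-head pair, PAICS counts over PPAT counts were 7.29 to 7.42 in control cells, 5.87 to 6.26 with P. chinensis, 6.06 to 6.66 under B. chinense and 6.03 to 7.18 after P. umbellatus. Of the pair, PAICS thus had the larger fall.

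The herbs were also compared with each other in A549 cells. None of the 10 genes passed the threshold between P. chinensis and B. chinense (background 1.45% of genes), between P. chinensis and P. umbellatus (3.01%) or between B. chinense and P. umbellatus (0.0513%) in edgeR. At an unadjusted p below 0.05, 2, 1 and 0 of the 10 did, and DESeq2 and voom called 0 in each. GMPS had the lowest p with a log2 difference of -0.13 ± 0.05 between P. chinensis and B. chinense, and of -0.13 ± 0.05 between P. chinensis and P. umbellatus (edgeR adjusted p = 0.205 and 0.148).

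In Huh7 cells P. chinensis lowered 3 of the 10 mRNAs, where 10.5% of the 13875 genes tested fell and 10.5% rose. The 10 had a median log2 fold change of -0.22, against 0.01 for all genes. PFAS measured 176, 167 and 169 CPM in control Huh7 cells and 115, 115 and 114 with P. chinensis, a fall of 33.0% (log2 -0.58 ± 0.10, edgeR adjusted p = 0.00164). GMPS measured 131, 141 and 139 CPM in control cells and 96.6, 91.3 and 91.2 with P. chinensis, a fall of 32.0% (-0.56 ± 0.10, 0.00143). Neither gene had overlapping libraries. PAICS, at 514, 487 and 490 CPM in control cells, measured 413, 405 and 387 and fell by 19.2% (-0.31 ± 0.09, edgeR adjusted p = 0.0262). This PAICS call was lost with upper quartile normalization (edgeR adjusted p = 0.053) and without control replicate 1 (0.0932) or 3 (0.0671). It was also lost without P. chinensis replicate 2 (0.0501) or 3 (0.0997). PRPS1, PPAT and GART were at -0.19, -0.28 and -0.25 with adjusted p of 0.144, 0.0993 and 0.0549. Without Huh7 P. umbellatus replicate 2, which enters the shared estimate of the spread, the same fold changes passed the threshold for these 3 genes as well (edgeR adjusted p = 0.0324, 0.00412 and 0.00907). In that fit 7 of the 10 were called, among them IMPDH2, described below. The share of all genes called in that fit is not given here, so this count has no background beside it.

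IMPDH2 had the highest fold change of the set in this comparison, without passing the threshold. It measured 293, 303 and 316 CPM in control Huh7 cells and 338, 328 and 347 with P. chinensis, each above control (0.15 ± 0.06, edgeR adjusted p = 0.0886, and 0.0113 without Huh7 P. umbellatus replicate 2). GMPS counts over IMPDH2 counts were 0.448, 0.465 and 0.439 in control libraries and 0.285, 0.278 and 0.262 with P. chinensis. In A549 cells the same ratio was 1.32 to 1.46 in control and 1.16 to 1.27 with P. chinensis. PFAS over ATIC in Huh7 cells was 0.806 to 0.901 in control and 0.585 to 0.589 with P. chinensis. ADSL, ATIC and ADSS2 were at 0.03, -0.05 and -0.11 and did not pass the threshold.

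**Figure D2:**
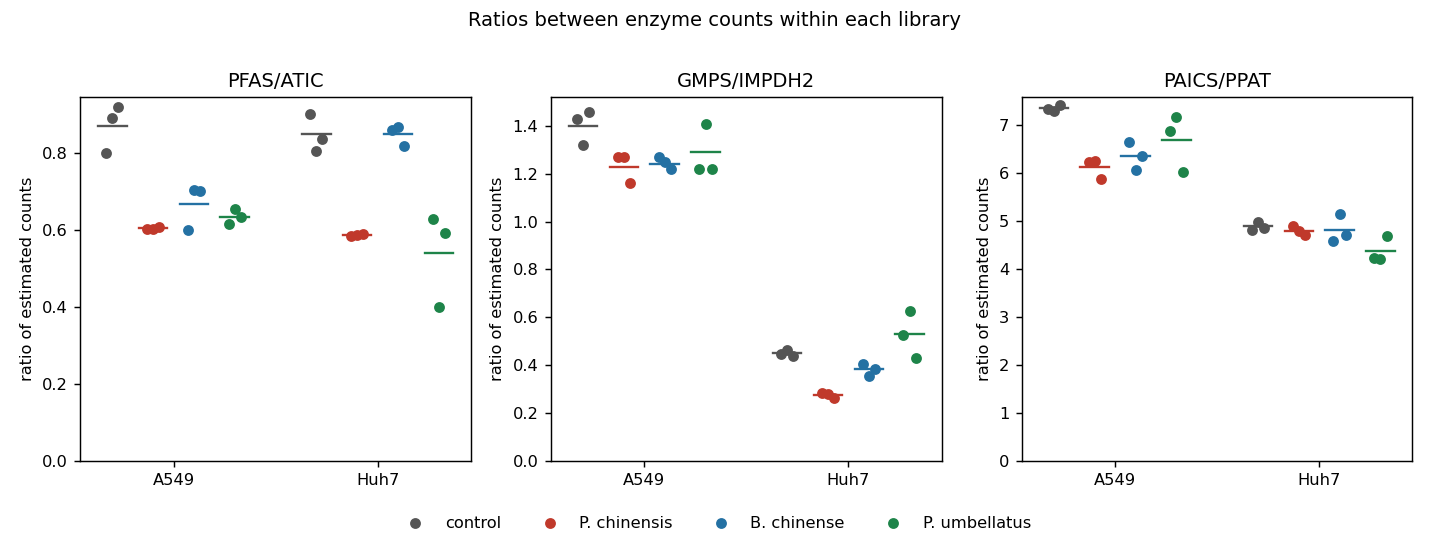
Ratios of the estimated counts of 2 enzymes within each library, with 1 point per library (n = 3 per group) and a line at the mean. PFAS/ATIC is 0.585 to 0.609 in the P. chinensis libraries of both lines and at least 0.801 in all control libraries, and GMPS/IMPDH2 in Huh7 cells is lowest with P. chinensis.

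With B. chinense in Huh7 cells none of the 10 genes passed the threshold in edgeR, where 0.757% of genes fell and 0.519% rose. None of the 10 had an unadjusted p below 0.05, and DESeq2 called none. The log2 fold changes lay between -0.14 (PRPS1 and GMPS) and 0.10 (IMPDH2), with a median of -0.08. PFAS, for example, measured 158, 160 and 166 CPM, near the 167 to 176 of control cells, and PAICS 473, 472 and 470 against 487 to 514.

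With P. umbellatus in Huh7 cells, 3 of the 10 mRNAs rose (19.3% of genes rose) and 1 fell (17.8% fell), in the libraries that stood apart. PPAT measured 132, 167 and 114 CPM against 107, 97.8 and 101 in control cells, a log2 fold change of 0.44 ± 0.11 (edgeR adjusted p = 0.0114). PAICS measured 558, 703 and 535 CPM and rose by 0.27 ± 0.09 (0.0316), and ADSS2 measured 129, 163 and 113 CPM against 103, 111 and 102 and rose by 0.36 ± 0.12 (0.0309). PFAS measured 133, 95.2 and 130 CPM and fell, with -0.51 ± 0.10 (0.00343). In each of these 4 genes replicate 2 was the farthest from control.

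These 4 changes followed transcript GC content, which is 37.9% in PPAT, 38.7% in ADSS2 and 41.9% in PAICS, but 58.2% in PFAS. Once the libraries were corrected for GC content and length, PPAT was at 0.01, PAICS at -0.07 and ADSS2 at -0.00, none past the threshold (edgeR adjusted p = 0.895, 0.188 and 0.971). PFAS was at -0.16 (0.013), and PRPS1 (-0.29) and GMPS (-0.22) passed the threshold as lower. Without replicate 2 the log2 fold changes were 0.27 for PPAT, 0.14 for PAICS, 0.20 for ADSS2 and -0.38 for PFAS, with ADSS2 no longer past the threshold (edgeR adjusted p = 0.0815) and PRPS1 past it as lower (-0.21). In a fit of only the 6 libraries compared, 0 of the 10 passed the threshold. In A549 cells the correction for GC content and length called 8, 7 and 8 of the 10, with PFAS at -0.70, -0.61 and -0.67. The shares of all genes called in these fits are not given here, so these counts have no background beside them.

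**Figure D3:**
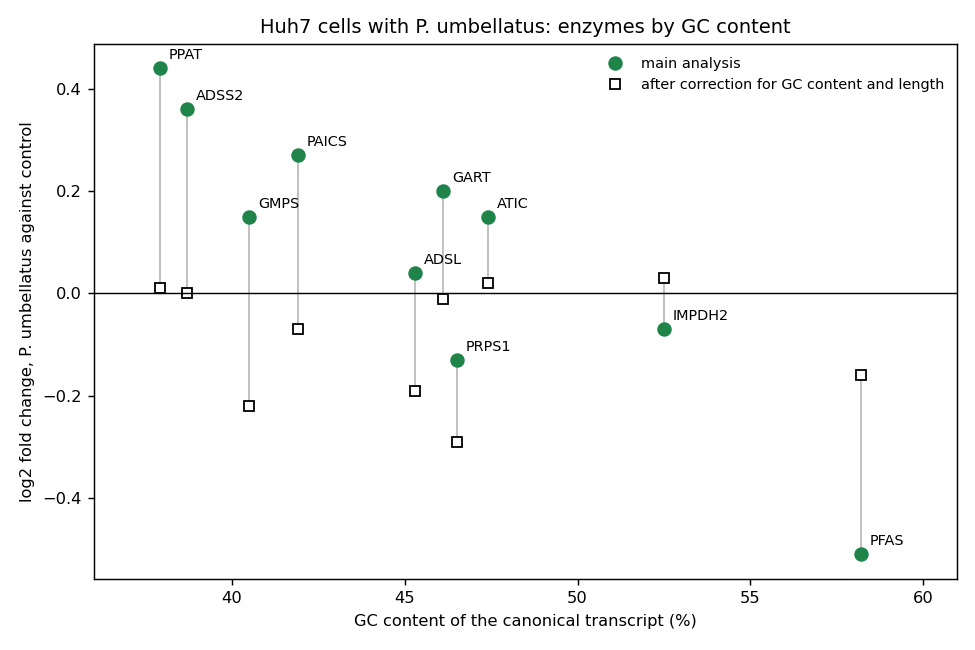
Log2 fold change of each enzyme with P. umbellatus against control in Huh7 cells (y axis) by the GC content of its canonical transcript in percent (x axis), before (green circles) and after (open squares) a correction for GC content and length. PPAT moves from 0.44 to 0.01 and PFAS from -0.51 to -0.16.

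Between herbs in Huh7 cells, P. chinensis and B. chinense differed in 2 of 10 genes (7.81% of all genes). PFAS was lower with P. chinensis by a log2 difference of -0.49 ± 0.10 (edgeR adjusted p = 0.0117) and GMPS by -0.42 ± 0.10 (0.0193). P. chinensis and P. umbellatus differed in 7 of 10 (35.4% of all genes), in 6 after the GC correction and in 8 without P. umbellatus replicate 2. B. chinense and P. umbellatus differed in 7 of 10 (27.3%), in 0 after the correction and in 5 without this replicate. The shares of all genes after the correction or without this replicate are not given here. PFAS, at 114 to 115 CPM with P. chinensis and 95.2 to 133 with P. umbellatus, was at -0.06 ± 0.10 between these herbs and did not pass, but passed as lower with P. chinensis after the GC correction (-0.32, edgeR adjusted p = 0.000159) and without replicate 2 (-0.20, 0.00527).

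The difference between the lines in the response to a herb was tested as an interaction over all 24 libraries and 12924 genes. For P. chinensis 1 of 10 genes passed (background 19.6%): IMPDH2, with an A549 minus Huh7 difference of -0.38 ± 0.08 (edgeR adjusted p = 0.00209). PFAS did not pass, with 0.02 ± 0.11 (adjusted p = 0.925; -0.15 and 0.0743 after the GC correction), and GMPS with 0.15 ± 0.10 (0.357). For B. chinense 2 of 10 passed (11.6%), PAICS with -0.48 ± 0.10 and PFAS with -0.36 ± 0.11, both more lowered in A549 cells. For P. umbellatus 5 of 10 passed (34.4%): PPAT (-0.73 ± 0.14), PAICS (-0.70 ± 0.10), ADSS2 (-0.47 ± 0.13), GART (-0.44 ± 0.10) and GMPS (-0.40 ± 0.10). After the GC correction PPAT and PAICS passed at -0.25 and -0.39, while ADSS2, GART and GMPS were at -0.01, -0.22 and -0.07 and did not pass. PFAS, at 0.05 ± 0.11 before it, then passed at -0.41 (edgeR adjusted p = 2.72e-05), the largest difference of the 10. Without Huh7 P. umbellatus replicate 2 the 5 genes passed at -0.61, -0.61, -0.36, -0.41 and -0.35 in the order above.

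**Figure D4:**
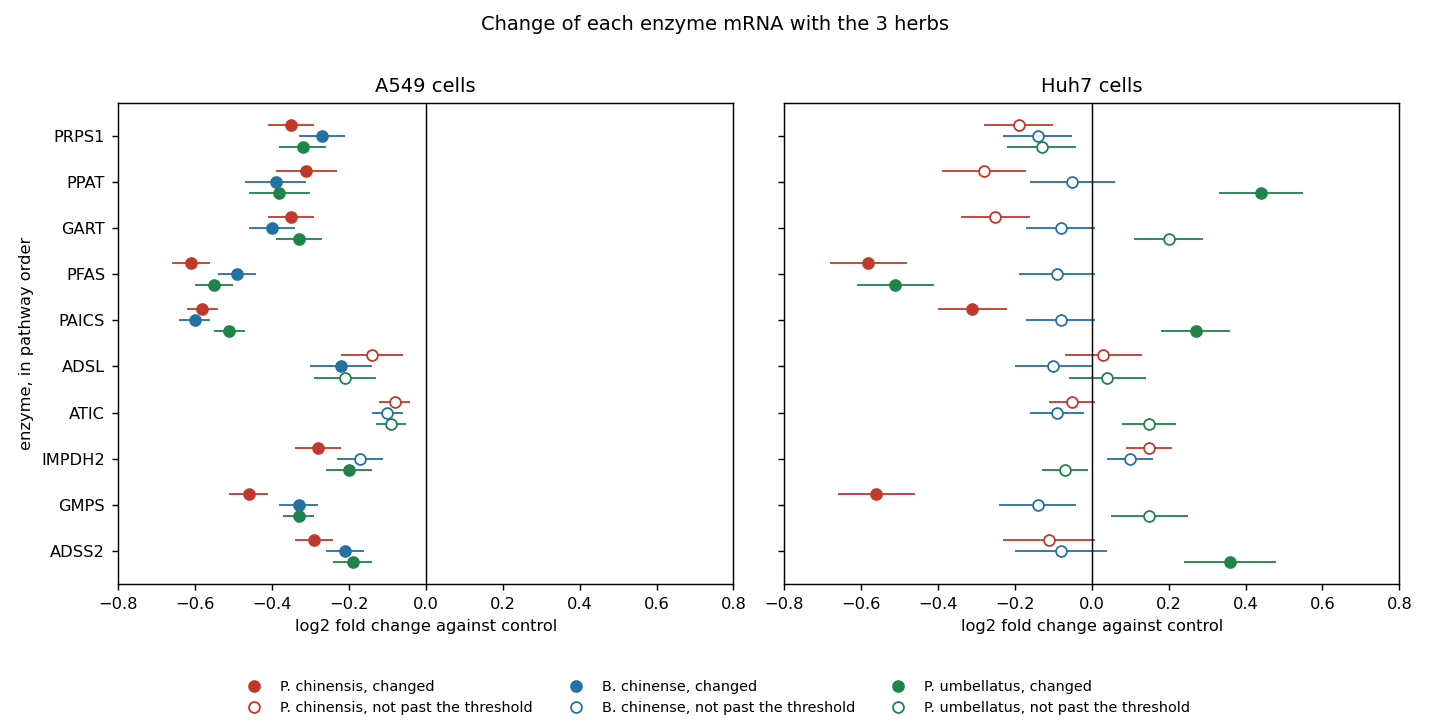
Log2 fold change against control with its standard error for the 10 enzymes in pathway order, in A549 (left) and Huh7 (right) cells, with filled points where the edgeR adjusted p was below 0.05. In A549 cells the points lie between -0.61 and -0.08, and in Huh7 cells the herbs separate, with PFAS low for P. chinensis and P. umbellatus.

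Untreated A549 and Huh7 cells differed in 8 of 10 genes, where 68.7% of all genes differed. On a scale shared by both lines, IMPDH2 measured 165, 177 and 153 CPM in A549 and 298, 308 and 321 in Huh7 cells, a log2 difference of -0.90 ± 0.06 (A549 minus Huh7, edgeR adjusted p = 4.99e-12). GMPS was higher in A549 cells, at 236, 234 and 224 against 134, 143 and 141 CPM (0.73 ± 0.07, 9.59e-09). PPAT and ADSL were lower in A549 (-0.65 ± 0.10 and -0.63 ± 0.09), and GART, PFAS, ATIC and PRPS1 higher (0.48, 0.46, 0.42 and 0.39). PAICS and ADSS2 did not pass the threshold (-0.06 ± 0.07 and -0.09 ± 0.09).

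Paralogs and partners of the enzymes were followed beside them. PRPS2, the near-identical copy of PRPS1, measured 94.7 ± 5.92 CPM (SD, n = 3) in control A549 cells and 57.5 ± 2.89, 62.0 ± 3.09 and 62.0 ± 3.85 with the herbs. It fell by 0.72, 0.61 and 0.61 on the log2 scale (each ± 0.07), and in Huh7 cells it was below the filter on low counts. Reads shared by these copies could be divided between them in either way by the estimation of counts, so the values of each are uncertain. IMPDH1, the other IMP dehydrogenase, fell in A549 cells with P. chinensis (-0.24 ± 0.07) and was at -0.08 and -0.07 with the others. With P. umbellatus in Huh7 cells it fell (-0.42 ± 0.13), but was at 0.20 after the GC correction. The PRPP synthetase-associated protein PRPSAP1 fell in Huh7 cells with P. chinensis (-0.27 ± 0.08) and P. umbellatus (-0.24 ± 0.08), and PRPSAP2 passed in none of the 6 comparisons with control. ADSS1 had group means of 1.07 to 3.16 CPM in A549 cells, did not pass there, and was below the filter in Huh7 cells.

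The pathways that feed and drain purines were followed with lists chosen by function. Beside their counts, 17.1%, 15% and 14.8% of all genes fell in A549 cells and 10.5%, 0.757% and 17.8% in Huh7 cells. The shares that rose were 15.8%, 13.1% and 13.4% in A549 cells and 10.5%, 0.519% and 19.3% in Huh7 cells. One-carbon supply, which provides formyl groups, fell in 8 of 11 genes with each herb in A549 cells, with 0 that rose. In Huh7 cells 9, 2 and 5 of 11 fell. MTHFD1, which makes the formyl folate for GART and ATIC, measured 223 ± 7.73 CPM (SD, n = 3) in control A549 cells and 153 ± 8.40 with P. chinensis (log2 -0.54 ± 0.06, edgeR adjusted p = 6.23e-06), with -0.45 and -0.49 for the other herbs. In Huh7 cells it fell with P. chinensis (-0.44 ± 0.13, 0.0276) and was at -0.31 and -0.30 with the others (each ± 0.13, edgeR adjusted p = 0.335 and 0.0889). SHMT1, a serine hydroxymethyltransferase, had the largest fall past the threshold in this list with P. chinensis in both lines (-1.96 ± 0.47 in A549 and -2.01 ± 0.42 in Huh7), at low levels whose control libraries varied widely (22.2 ± 13.9 CPM in A549, SD, n = 3). Of the genes past the threshold with B. chinense in Huh7 cells, SHMT2, its mitochondrial counterpart, had the largest fall (-0.59 ± 0.10).

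Ribose phosphate supply fell in 6 of 7 genes with P. chinensis in A549 cells and in 3 with either of the other herbs, led by PGD of the pentose phosphate pathway (-0.55 ± 0.04 with P. chinensis) and RPIA, the ribose phosphate isomerase (-0.52 ± 0.13 with B. chinense). Salvage, which reuses purine bases and nucleosides, was mixed: 5 fell and 1 rose of 11 with P. chinensis, and 4 fell and 1 rose with either other herb. HPRT1, which recycles hypoxanthine and guanine, fell in A549 cells (-0.30, -0.31 and -0.28, each ± 0.07). In Huh7 cells it was at 0.05, 0.10 and 0.34 (each ± 0.13) and did not pass (edgeR adjusted p = 0.836, 0.855 and 0.0655). AK1, an adenylate kinase, rose in A549 cells with P. chinensis (0.87 ± 0.14) and P. umbellatus (0.54 ± 0.14). With B. chinense AK1 was the 1 salvage gene that rose (0.52), with a mean of 23.4 CPM against 16.3 in control A549 cells. DCK, deoxycytidine kinase, had the largest change past the threshold with B. chinense and P. umbellatus (-0.82 and -0.62, each ± 0.15). In purine breakdown 3, 4 and 4 of 10 genes tested rose in A549 cells, beside 15.8%, 13.1% and 13.4% of all genes, and 0, 0 and 1 fell.

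XDH, which makes urate, measured 9.73 ± 0.558 CPM in control A549 cells and 30.5 ± 1.75, 21.2 ± 2.68 and 30.4 ± 3.22 with the herbs (SD, n = 3). Its log2 fold changes were 1.63, 1.11 and 1.62 (edgeR adjusted p from 1.84e-07 to 1.59e-05). AMPD3, an AMP deaminase, had the largest change past the threshold in this list with B. chinense in A549 (1.18 ± 0.30) and with P. chinensis in Huh7 cells (0.92 ± 0.24). Its levels were low, with control means of 2.05 CPM in A549 and 2.33 CPM in Huh7 cells. In Huh7 cells 1, 0 and 1 of the 10 breakdown genes tested rose and 2, 0 and 1 fell, beside the shares of all genes given above. Pyrimidine synthesis fell in 1 of 5 genes with each herb in A549 cells, namely CAD, the multifunctional first enzyme (-0.39, -0.31 and -0.31, each ± 0.04), and in 2, 0 and 1 of 5 in Huh7 cells (with B. chinense, 0 of 5 also at an unadjusted p below 0.05). CAD was at -0.22 ± 0.13 with B. chinense in Huh7 cells (edgeR adjusted p = 0.584). The 5 genes of that list had a median of -0.17, -0.16 and -0.15 in A549 cells, against -0.33, -0.30 and -0.32 for the purine enzymes.

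**Figure D5:**
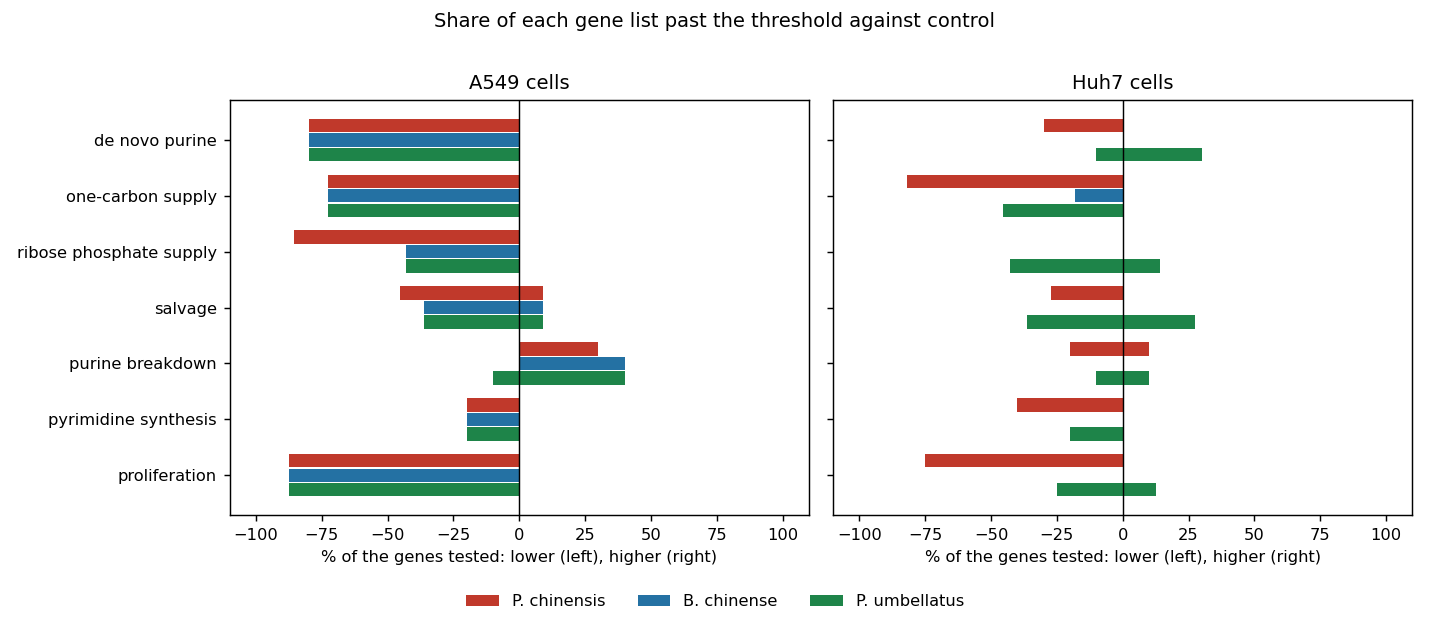
Share of the tested genes of each list past the threshold against control, in percent, with genes that fell to the left and genes that rose to the right, for 3 herbs in A549 and Huh7 cells. In A549 cells the purine synthesis, one-carbon, ribose phosphate, pyrimidine and proliferation lists extend only to the left and the purine breakdown list mainly to the right.

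Proliferation and regulator genes were measured beside the set, and the shares of all genes given above for the other lists apply to their counts. MKI67, a marker of cycling cells, fell in A549 cells from 837 ± 17.9 CPM to 279 ± 27.6, 391 ± 42.6 and 387 ± 31.3 with the herbs (SD, n = 3), a log2 change of -1.59, -1.10 and -1.11. In Huh7 cells it fell with P. chinensis (-0.53 ± 0.10, edgeR adjusted p = 0.00279). It was at -0.19 and 0.06 with the other herbs there (each ± 0.10, edgeR adjusted p = 0.505 and 0.656). Of the 8 proliferation genes, 7 fell with each herb in A549 cells, and 6, 0 and 2 fell in Huh7 cells with 1 that rose with P. umbellatus. With B. chinense in Huh7 cells 1 of the 8 had an unadjusted p below 0.05. TYMS, thymidylate synthase, fell in A549 cells (-0.55, -0.37 and -0.39) and in Huh7 cells with P. chinensis (-0.42) and P. umbellatus (-0.31). It was at -0.14 with B. chinense in Huh7 cells (edgeR adjusted p = 0.586). MYC fell in A549 cells (-0.26, -0.25 and -0.24, each ± 0.07, with edgeR adjusted p from 0.0112 to 0.0209). In Huh7 cells it was at 0.26 ± 0.09, 0.15 ± 0.10 and 0.10 ± 0.10 and did not pass (edgeR adjusted p = 0.0676, 0.606 and 0.418). Of the 8 regulators, 4, 5 and 3 fell and 1, 1 and 0 rose in A549 cells. In Huh7 cells P. chinensis and B. chinense gave 0 calls by edgeR (2 and 2 at an unadjusted p below 0.05), and with P. umbellatus 2 fell and 1 rose. E2F1, an activator of S phase genes, fell with each herb in A549 cells (-1.36, -0.98 and -0.80, each ± 0.09). Fewer cycling cells and less mRNA per cell cannot be told apart in these bulk samples, and the part of proliferation in the changes of the purine enzymes was not tested.

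The genes whose fold changes were most like the median of the 10 enzymes over the 6 comparisons with control were ZNF281, DHX9, ORC2, DCAF1 and AGO2, among 9882 candidates outside the lists. Their mean absolute log2 difference from that median was between 0.017 and 0.036. ZNF281, a zinc finger protein, was at -0.32, -0.31 and -0.30 in A549 cells and -0.21, -0.04 and 0.17 in Huh7 cells.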

How the data were processed

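Estimated counts per gene were used as deposited by the authors. Per the labels and the methods, ribosomal RNA was removed and paired-end reads were quantified with kallisto on Ensembl GRCh38.p13 transcripts, and the table was limited to protein-coding genes averaging more than 5 counts. Summing to genes and rounding to the deposited whole numbers were not described in the sources used here, so no comparison of levels between genes was made per length. Counts were fitted per line (12 libraries) with edgeR 4.0.16 in R 4.3.3 (TMM, quasi-likelihood, prior count 2) on genes with a mean above 5 in that line, with two-sided tests and Benjamini-Hochberg adjustment over all genes tested (threshold 0.05). Interactions and the comparison of untreated lines used all 24 libraries. Alternatives included DESeq2 1.42.0, limma 3.58.1 (voom), other normalizations and filters, and leaving out replicates. The GC and length correction and the minimum log2 fold change of 0.5 were added after seeing the data. The pipeline was tested on simulated data.

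The members and lists were chosen with earlier results of these data known. All enzymes, paralogs and partners are named. Other lists are given by counts, with the gene of largest change past the threshold per comparison with control, and MYC, MKI67, HPRT1, MTHFD1, CAD and TYMS throughout. Some genes under that rule are given in the closing section. A result under the rule is not reported here. Replicate numbers did not pair the samples.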

Additional observations from a re-analysis of the deposited data

Results flagged for a closer look

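The responses of the lines to a herb differed, by the interaction test of edgeR, for 15 of the values reported. Differences are A549 minus Huh7 on the log2 scale. With P. chinensis they were -0.38 for IMPDH2, 0.34 for PRPSAP2, -1.0 for MKI67 and -0.47 for MYC. With B. chinense they were -0.36 for PFAS, -0.48 for PAICS and -0.87 for MKI67. With P. umbellatus they were -0.73 for PPAT, -0.44 for GART, -0.70 for PAICS, -0.40 for GMPS, -0.47 for ADSS2, 0.43 for IMPDH1, -0.53 for HPRT1 and -1.09 for MKI67. The P. umbellatus values rest on the Huh7 libraries that stood apart, and IMPDH1 was at -0.22 after the GC correction. The groups held 3 libraries each, so single libraries were not screened as outliers.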

How the results depend on the processing

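In A549 cells the 8 members called with each herb were 8 again with the replicate number as a block, and the count stayed within 1.5 times under all alternatives but 1. Requiring an absolute log2 fold change above 0.5, a setting chosen after seeing the data, left 2, 1 and 2 members against control in A549 cells for P. chinensis, for B. chinense and for P. umbellatus. It left 1 with P. umbellatus in Huh7 cells, 0, 3 and 0 between P. chinensis and B. chinense, P. chinensis and P. umbellatus, and B. chinense and P. umbellatus in Huh7 cells, 0, 0 and 2 for the interactions in the same herb order, and 4 between the untreated lines. Most falls in A549 cells are thus below this size, with PFAS and PAICS the exceptions.

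The Huh7 counts changed with several settings, and shares of all genes in the settings of this section are not given. For P. chinensis against control, 3 members became 5 with DESeq2 and 7 with voom weights, with the GC correction and in the fit of 6 libraries. These were not all falls, since IMPDH2 was called as higher with DESeq2 (0.14, DESeq2 adjusted p = 0.0416) and with voom (0.14, voom adjusted p = 0.00426). For P. umbellatus against control 4 became 0 in the fit of 6 libraries. P. chinensis against B. chinense gave 4 with voom, 5 with the GC correction and 5 with 6 libraries, P. chinensis against P. umbellatus 4 with 6 libraries, and B. chinense against P. umbellatus 0 with the GC correction and 0 with 6 libraries. The P. chinensis interaction gave 2 with voom and 2 with the GC correction. The B. chinense interaction gave 1 with upper quartile normalization, 1 without the filter, 1 with a mean above 50 counts, 5 with voom and 4 with the GC correction. The P. umbellatus interaction gave 3 with the GC correction. The 6-library fits hold fewer samples and leave out the other groups. The cause of these changes was not tested.

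Leaving out 1 library in turn gave 2 to 7 members for P. chinensis against control in Huh7 cells (2 without control replicate 1, 7 without P. umbellatus replicate 2) and 1 to 6 for P. umbellatus (1 without control replicate 2, 6 without P. umbellatus replicate 3). It gave 0 to 4 between P. chinensis and B. chinense (0 without P. chinensis replicate 3), 1 to 8 between B. chinense and P. umbellatus (1 without B. chinense replicate 2), 1 to 2 for the P. chinensis interaction and 1 to 5 for that of B. chinense (5 without Huh7 P. umbellatus replicate 2).

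With the GC correction the direction turned in Huh7 cells with P. umbellatus for GART (-0.01), PAICS (-0.07), ADSL (-0.19), IMPDH2 (0.03), GMPS (-0.22), ADSS2 (-0.00), IMPDH1 (0.20), MYC (-0.01) and MKI67 (-0.11), for ADSL (-0.02) and HPRT1 (-0.04) with P. chinensis, for GMPS between B. chinense and P. umbellatus (0.05), for IMPDH1 in the P. umbellatus interaction (-0.22) and for PRPSAP2 with B. chinense in A549 cells (0.02). Of differences between lines that were not called, PFAS also turned for P. chinensis (0.02 to -0.15), and for P. umbellatus PFAS (0.05 to -0.41), PRPS1 (-0.10 to 0.10) and ADSL (-0.17 to 0.04). PRPSAP2 was also at 0.02 and ATIC in Huh7 cells with P. chinensis at 0.00 with upper quartile normalization, and ADSS1 with P. umbellatus in A549 cells at 0.26 with voom. Leaving out 1 library turned PRPSAP2 with B. chinense (-0.06 to 0.02 in A549, -0.07 to 0.01 in Huh7), ADSS1 in A549 with B. chinense (-0.24 to 0.89) and P. umbellatus (-1.37 to 0.02), ADSL in Huh7 with P. chinensis (-0.06 to 0.09) and P. umbellatus (-0.05 to 0.10), HPRT1 with P. chinensis (-0.04 to 0.11) and MKI67 with P. umbellatus (-0.09 to 0.16) in Huh7 cells. Same-numbered replicates correlated between -0.13 and 0.09 in their deviations, so the replicate number was not used as a pairing. With it as a block, Huh7 P. chinensis against control gave 4 members and B. chinense against P. umbellatus 6.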

Other observations

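Among the related genes in Huh7 cells with P. umbellatus, the largest changes past the threshold in their lists were APRT, which salvages adenine (-1.35 ± 0.32), AMPD2, an AMP deaminase (-1.12 ± 0.11), PGLS of the pentose phosphate pathway (-1.11 ± 0.21), SHMT1 (-2.37 ± 0.45), CAD (-0.46 ± 0.14), MCM2 of the replicative helicase (-0.49 ± 0.07) and E2F1 (-0.66 ± 0.17). These values rest on the libraries that stood apart. APRT measured 37.4, 13.7 and 58.7 CPM in them and PGLS 20.1, 12.5 and 29.4. After the GC correction APRT was at -0.61 (edgeR adjusted p = 0.0247), and corrected values of the others are not given here. With P. chinensis in Huh7 cells the largest changes in their lists were SLC29A1, a nucleoside transporter (-1.05 ± 0.18), MCM2 (-0.68 ± 0.07) and CAD (-0.47 ± 0.13). In A549 cells RPIA with P. umbellatus (-0.47 ± 0.13), SHMT1 with B. chinense (-1.53 ± 0.47) and the mitotic kinase CDK1 with B. chinense (-1.19 ± 0.08) and P. umbellatus (-1.20 ± 0.08) led their lists.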
